A study of Mus musculus with 8 samples.

Results

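Solute carriers are membrane proteins that move amino acids, sugars, vitamins, nucleosides, metals, inorganic ions and metabolic intermediates across the plasma membrane and the membranes of mitochondria, Golgi and lysosomes. Their symbols start with Slc, followed by a family number. Pro-B cells are dividing bone marrow progenitors that assemble their immunoglobulin heavy chain genes, and dividing lymphoid cells are known to draw on imported amino acids, glucose and nucleosides.

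The expressed carriers were chosen by level. Of 347 Slc symbols measured by a probe set with a single platform symbol, 166 had a value of 5 or more (log2) on at least 4 of 8 arrays, judged on the probe set with the highest mean over all arrays, and 181 did not. Levels therefore chose the members, and no test of the difference between genotypes was used. The 4 arrays of a single group can still meet the rule, so a gene can enter through the group where it is higher. All but 7 members reached 5 on every array, and 0 members had a whole group of arrays under 5. Nearest the limit were Slc39a4, Slc16a13 and Slc25a25, which reached 5.20, 5.28 and 5.30 or more on 4 arrays. Just outside it lay Slc35d3, Slc6a8 and Slc30a3, which reached 4.75, 4.60 and 4.37 on 4 arrays. The lowest value of the table is 2.08. The cystine carrier Slc7a11 and the lactate exporter Slc16a3 sat at it on all 8 arrays, and the macrophage metal carrier Slc11a1 averaged 4.45 in menin-deficient and 4.13 in control arrays, so none of these is among the members.

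The comparison asks which carriers differ when menin is lost. Menin, encoded by Men1, is a chromatin-associated partner of MLL histone methyltransferases. The menin-deficient group was 4 Rag1-cre;MenF/F mice and the control group 4 MenF/F mice, so that floxed Men1 alleles were shared and Cre was carried by the menin-deficient mice alone. What Cre does by itself and what menin loss does cannot be told apart here. Mice were 2 to 3 weeks old per the labels. RNA came from sorted Fraction B pro-B cells (B220+ CD43+ HSA+ BP-1-) of bone marrow, with 1 whole-genome expression array per mouse. By Xist level, 2 menin-deficient and 1 control mice were male. The number of arrays limits the precision.

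Men1 averaged 8.15 ± 0.28 in menin-deficient and 9.54 ± 0.26 in control arrays (log2, SD, n = 4 each), a difference of -1.39 (SE 0.18, limma adjusted p = 0.00391). Of 9 pro-B markers with a single-symbol probe set, 9 reached the level of 5. Their mean ran from 14.04 to 14.18 in menin-deficient and from 13.90 to 14.05 in control arrays, with 2 of 9 higher (Igll1 by 0.38 and Dntt by 0.35). Over all 11885 tested genes the median difference was 0.11, menin-deficient minus control, and 1922 genes rose (16.2%) and 614 fell (5.17%). Some marker lists of other blood cells moved too. The mean of 4 NK cell markers was 8.60 to 9.31 in menin-deficient and 7.65 to 8.13 in control arrays, with 2 of 4 higher. That of 5 monocyte and macrophage markers was 8.71 to 9.71 against 8.50 to 9.0, with 3 of 5 higher, and that of 4 plasmacytoid dendritic cell markers was 7.02 to 7.69 against 5.92 to 6.42, with 2 of 4 higher. Of 6 T cell markers 2 were higher (list mean 4.52 to 4.65 against 4.02 to 4.19), while Cd3e, Cd3d and Cd4 averaged 2.08 to 2.10 in each group, at or next to the floor. The means of the neutrophil list (9.43 to 10.40 against 9.16 to 9.92) and of the erythroid list (8.83 to 9.75 against 8.98 to 9.61) overlapped between groups, and 2 of 4 plasma cell markers fell (8.17 to 8.58 against 8.68 to 9.49). The part of other cell types in the differences below was not tested. In such sorted bulk RNA, fewer cells of a type and less RNA per cell cannot be told apart.

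Of the 166 expressed carriers, 39 rose and 10 fell in menin-deficient cells at a limma adjusted p under 0.05 over all tested genes, and 117 did not pass. These are 23.5% and 6.02% of the members, against 16.2% and 5.17% of all tested genes. Among the 9888 tested genes that meet the same level rule the shares were 18.5% and 6.07%. The share of falls was thus near the background, and the share of rises lay above it by an amount that was not tested. The median difference was 0.17 over the members, 0.11 over all tested genes and 0.14 over genes at the same level, and 121 members (72.9%) had a difference above 0, against 66.8% of all tested genes. At least 2-fold and past the threshold were 7 members (3.34% of all tested genes were). The 2 groups of arrays did not overlap in 53 members, or 31.9%, against 26.3% of all tested genes.

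Scaling mattered for the direction of calls. With each array centred on its median tested gene, which takes 0.13 off every difference, 20 members were higher and 14 lower (12% and 8.43%, against 7.67% and 8.17% of all tested genes). Rises made up 58.8% of the members' calls then, against 79.6% as deposited. All 10 falls and 20 of the 39 rises kept their direction and call. The 19 rises that lost it were Slc38a1, Slc36a4, Slc26a2, Slc8b1, Slc10a3, Slc39a11, Slc40a1, Slc25a5, Slc25a11, Slc25a17, Slc29a1, Slc35a3, Slc35a4, Slc35d1, Slc35b2, Slc17a5, Slc35e3, Slc50a1 and Slc45a4 (adjusted p from 0.0512 to 0.908). The count of rises was 21 without menin-deficient replicate 2, 23 without menin-deficient replicate 4 and 26 without control replicate 1. Of the rises 18 kept their call whichever array was left out, and of the falls 6.

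**Figure D1:**
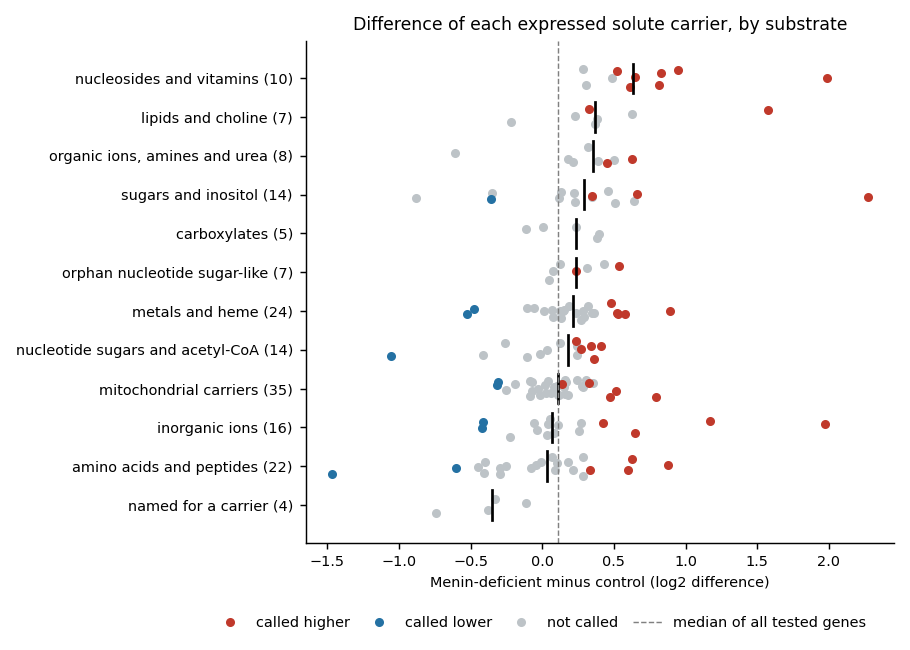
Log2 difference, menin-deficient minus control, of each of the 166 members (points), in rows by transported substrate with the number of members in brackets. Black bars are class medians, the dashed line is the median of all tested genes (0.11), red and blue points passed the limma threshold as higher and lower. Carriers of nucleosides and vitamins all lie right of the dashed line, with a median of 0.63.

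Carriers of nucleosides and vitamins were the class with the largest share of calls. In it 7 of 10 rose (70%, against 18.5% of genes at the members' level), a distance that was not tested. On the probe sets that stood for the genes the differences of all 10 were above 0, and the class median was 0.63. After centring 6 were higher. The count was 5 without control replicate 1, control replicate 4 or menin-deficient replicate 2 in turn, 8 without control replicate 2, and 4 to 8 over all alternatives tried. Classes were drawn by family number with exceptions by gene, with earlier results of these data known. Slc43a3 is counted here, while Slc43a1 and Slc43a2 of the same family are counted among amino acid carriers. The alternatives kept this assignment, and its part in the count was not tested. Slc52a3, which carries riboflavin, measured 7.21, 7.30, 7.59 and 6.15 in the menin-deficient arrays and 4.81, 5.41, 4.83 and 5.26 in the control arrays. Every menin-deficient value lay above every control value, and the gene rose by 1.98 on the log2 scale (SE 0.32, 3.96-fold, limma adjusted p = 0.00805). It has a single probe set, and 2 control arrays lay below 5.

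The ascorbate (vitamin C) carriers Slc23a1 and Slc23a2 rose too. Slc23a2 had 9.24, 9.62, 9.15 and 9.25 in menin-deficient and 8.38, 8.40, 8.74 and 8.50 in control arrays, without overlap (difference 0.81, SE 0.13, 1.75-fold, limma adjusted p = 0.00696). Slc23a1 was the only called member whose groups overlapped, since menin-deficient replicate 4 (7.70) lay below control replicate 1 (7.72). Its difference was 0.95 (SE 0.24, limma adjusted p = 0.0321), a call lost on leaving out any of 6 arrays (highest adjusted p = 0.0872, without menin-deficient replicate 2).

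Equilibrative nucleoside carriers moved together. Slc29a1, at the plasma membrane, had 9.60, 9.69, 9.64 and 9.54 in menin-deficient against 9.03, 9.23, 8.83 and 9.29 in control arrays (1.43-fold, limma adjusted p = 0.0156). Slc29a3, of lysosomes, had 9.79, 9.87, 9.87 and 9.62 against 9.34, 9.19, 9.06 and 9.08 (1.53-fold, limma adjusted p = 0.00493), and its other probe set differed by 0.74. Neither gene overlapped between groups, and the call of Slc29a1 was lost after centring (adjusted p = 0.0512). The purine nucleobase carrier Slc43a3 rose 1.57-fold (11.55 ± 0.14 against 10.90 ± 0.27, SD, n = 4 each, limma adjusted p = 0.0203), and Slc46a3, a lysosomal relative of the folate carrier, 1.78-fold (8.15 ± 0.31 against 7.33 ± 0.23, limma adjusted p = 0.0192). The call of Slc43a3 was lost without menin-deficient replicate 2 or control replicate 1 (highest adjusted p = 0.0594), and that of Slc46a3 without control replicate 1, control replicate 4 or menin-deficient replicate 4 (highest adjusted p = 0.0535). The remaining 3 members, the folate carrier Slc19a1, the thiamine carrier Slc19a2 and the multivitamin carrier Slc5a6, differed by 0.31, 0.28 and 0.49 and did not pass. A dimmer probe set of Slc19a2 differed by -0.49 (7.63 against 8.12, adjusted p = 0.0791 in a limma fit of single probe sets). A second one of Slc19a1 differed by 0.51.

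**Figure D2:**
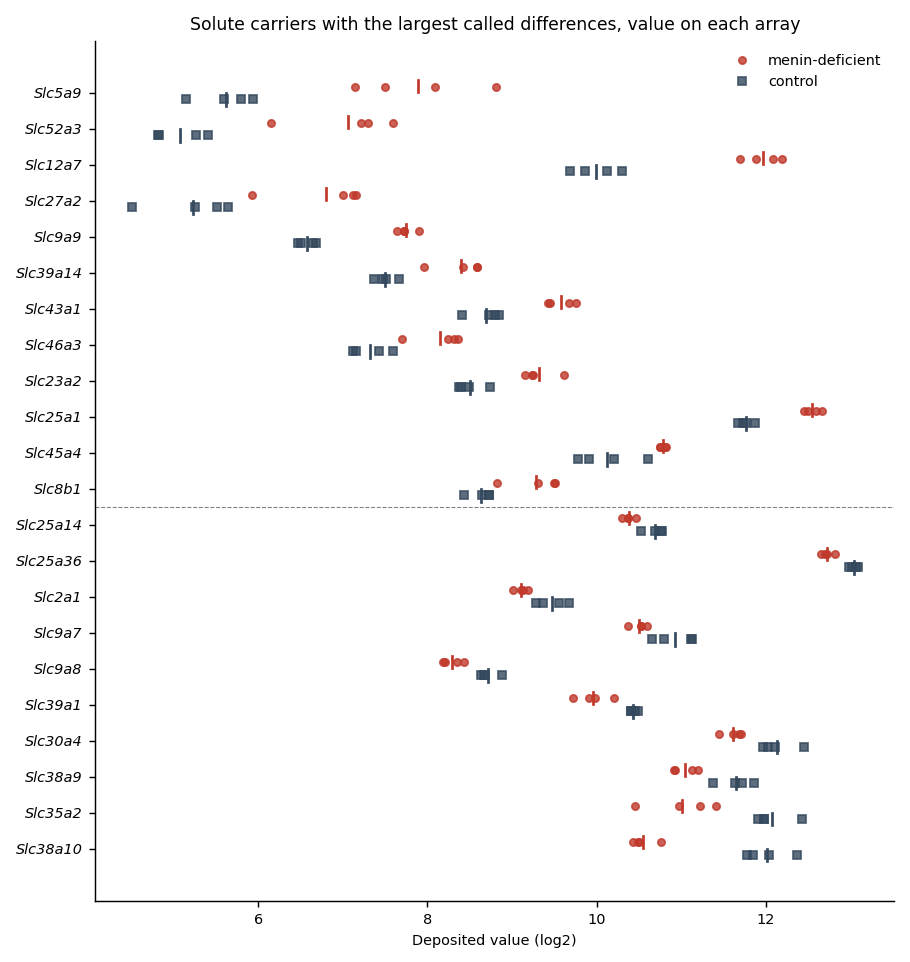
Deposited log2 value on each array for the 12 largest rises (above the dashed line) and the 10 falls among the members, with menin-deficient arrays (red circles) above control arrays (dark squares) and bars at group means. The groups do not overlap in any of these genes, by the rule that chose them, and Slc5a9, Slc52a3, Slc12a7 and Slc27a2 are the rises of at least 2.98-fold.

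Among 16 carriers of inorganic ions, 4 rose and 2 fell (25% and 12.5%, against 18.5% and 6.07% of genes at the members' level). The class median of 0.07 lay below that of all tested genes. After centring 2 were higher and 2 lower. Slc12a7 encodes KCC4, a potassium-chloride cotransporter that takes part in cell volume control. It had 11.88, 12.09, 12.19 and 11.69 in menin-deficient and 9.68, 9.86, 10.30 and 10.13 in control arrays. The lowest menin-deficient array stood 1.39 above the highest control array, and the difference was 1.97 (SE 0.16, 3.93-fold, limma adjusted p = 0.0013). A second probe set gave 1.95 at lower signal (9.56 against 7.60). The sodium-potassium-chloride cotransporter Slc12a2 differed by 0.26 (95% interval -0.06 to 0.57) and the potassium-chloride cotransporter Slc12a4 by 0.27 (limma adjusted p = 0.112), neither past the threshold.

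Sodium-proton exchangers of intracellular membranes went both ways. Slc9a9 (NHE9, of endosomes) had 7.64, 7.91, 7.72 and 7.73 in menin-deficient and 6.50, 6.68, 6.65 and 6.47 in control arrays, a rise of 2.25-fold with SDs of 0.11 in each group (limma adjusted p = 0.000707). Slc9a8 and Slc9a7, of the Golgi, fell by 1.34-fold each. Slc9a8 measured 8.43, 8.21, 8.19 and 8.35 against 8.88, 8.68, 8.63 and 8.67 (limma adjusted p = 0.0128), but a second probe set differed by -0.03, and the mean of probe sets ended the call (adjusted p = 0.546). Slc9a7 measured 10.53, 10.52, 10.37 and 10.60 against 11.11, 10.65, 10.80 and 11.13 (limma adjusted p = 0.0477), and its call was lost on leaving out any of 7 arrays (highest adjusted p = 0.11, without control replicate 1). Rises of Slc26a2, a sulfate carrier (1.34-fold), and Slc8b1, the mitochondrial sodium-calcium exchanger (1.57-fold), were lost with any of 3 and of 7 arrays left out (highest adjusted p = 0.0566 and 0.0808, without control replicate 1). The phosphate importer Slc20a1 differed by 0.11 (95% interval -0.23 to 0.45) on its first probe set, whereas a dimmer one was lower by -0.93 (adjusted p = 0.0156 in a limma fit of single probe sets). Slc4a1, the red cell anion exchanger band 3, differed by -0.22 and did not pass.

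RefSeq promoter windows (GRCm38.p6, 250 bases before to 50 after a gene start) were matched for 122 of the 166 members. They are shown for 4 of the 12 largest rises, so that the sequence ahead of these genes can be read beside their values, and for Slc30a1, whose induction by zinc through metal response elements is textbook knowledge. These 5 were chosen after their values were seen. Windows were also matched for Slc27a2, Slc23a2 and Slc46a3, which are among the 12 largest rises too and are not shown. Each of those holds 0 E-boxes, 0 amino acid response elements and 1 metal response element core. The 4 rises shown each hold an E-box or an amino acid response element, so they do not stand for the largest rises as a set. Capitals mark the E-box CACGTG, the amino acid response element TGATGNAA and the metal response element core (TGCGCNC or TGCACNC), each searched on both strands, and no marked motifs overlap in these windows.
Slc12a7, chr13:73763410-73763709, plus strand: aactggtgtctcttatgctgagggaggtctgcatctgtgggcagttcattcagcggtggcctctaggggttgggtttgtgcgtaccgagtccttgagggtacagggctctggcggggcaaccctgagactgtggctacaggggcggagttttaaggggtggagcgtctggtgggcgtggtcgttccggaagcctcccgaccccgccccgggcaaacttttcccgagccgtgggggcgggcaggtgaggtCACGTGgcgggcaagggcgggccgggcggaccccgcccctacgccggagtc
Slc9a9, chr9:94669642-94669941, plus strand: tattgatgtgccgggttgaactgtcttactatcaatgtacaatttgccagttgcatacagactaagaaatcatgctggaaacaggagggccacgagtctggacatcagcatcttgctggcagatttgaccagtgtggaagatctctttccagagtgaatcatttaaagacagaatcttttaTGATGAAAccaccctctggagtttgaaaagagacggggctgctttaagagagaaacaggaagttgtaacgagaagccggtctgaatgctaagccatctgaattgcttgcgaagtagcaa
Slc25a1, chr16:17928170-17928469, minus strand: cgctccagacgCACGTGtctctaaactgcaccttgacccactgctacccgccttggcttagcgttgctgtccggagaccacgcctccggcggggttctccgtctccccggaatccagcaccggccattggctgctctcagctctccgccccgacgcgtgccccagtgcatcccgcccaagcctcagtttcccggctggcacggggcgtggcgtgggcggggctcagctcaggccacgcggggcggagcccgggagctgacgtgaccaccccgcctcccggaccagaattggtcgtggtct
Slc43a1, chr2:84840073-84840372, plus strand: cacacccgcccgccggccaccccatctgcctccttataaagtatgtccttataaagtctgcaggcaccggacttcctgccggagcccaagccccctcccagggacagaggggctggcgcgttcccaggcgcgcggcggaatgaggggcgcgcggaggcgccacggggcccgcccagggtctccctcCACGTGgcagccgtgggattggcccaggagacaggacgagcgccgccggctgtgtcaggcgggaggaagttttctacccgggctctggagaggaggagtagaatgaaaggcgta
Slc30a1, chr1:191906531-191906830, plus strand: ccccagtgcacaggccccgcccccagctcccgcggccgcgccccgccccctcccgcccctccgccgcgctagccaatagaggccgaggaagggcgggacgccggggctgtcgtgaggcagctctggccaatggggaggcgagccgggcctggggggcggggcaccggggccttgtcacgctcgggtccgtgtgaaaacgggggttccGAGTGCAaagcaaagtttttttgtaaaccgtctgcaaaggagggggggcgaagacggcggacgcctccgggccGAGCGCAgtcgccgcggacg
The window of Slc12a7, the ion carrier with the largest rise, holds 1 E-box, as do those of Slc25a1 and Slc43a1, described below. That of Slc9a9 holds 1 amino acid response element and is the poorest in G and C of the 5 (43.7%, against 66.7% to 73.0%). Slc30a1 holds 2 metal response element cores. The letters of the E-box stood in 4 of 25 windows of members that rose, 2 of 10 of members that fell, 12 of 87 of members not called and 7.24% of all 27025 gene windows. Metal response element cores stood in 40.2% of the members' windows and 25.6% of all windows. By call they stood in 10 of 25 windows of rises, 4 of 10 of falls and 35 of 87 of members not called. For the amino acid response element the shares were 3.28% of members' and 4.06% of all windows (2 of 25, 0 of 10 and 2 of 87 by call). Members' windows were richer in G and C than all windows (median 63.7% against 52.7%), and the part of base composition in these shares was not tested.

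Of 24 carriers of metals and heme, 5 rose and 2 fell. These shares of 20.8% and 8.33% were near those of genes at the members' level (18.5% and 6.07%). The class median was 0.21, and 3 were higher and 2 lower after centring. Zinc carriers of the Slc39 family bring zinc into the cytosol and those of the Slc30 family take it out. Slc39a14, which also carries iron and manganese, had 8.42, 7.96, 8.59 and 8.59 in menin-deficient and 7.51, 7.37, 7.66 and 7.47 in control arrays (1.85-fold, SE 0.15 on the log2 scale, limma adjusted p = 0.00893). The importer Slc39a1 had 9.98, 9.72, 10.21 and 9.92 against 10.41, 10.48, 10.45 and 10.40, a fall of 1.39-fold (limma adjusted p = 0.0166). These importers thus changed in opposite directions without overlap between groups.

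Exporters were split as well. Slc30a6, of the Golgi, rose 1.40-fold (11.48, 11.65, 11.53 and 11.54 against 11.14, 11.00, 10.95 and 11.18, limma adjusted p = 0.00527), while Slc30a4, of vesicles, fell 1.44-fold (11.68, 11.45, 11.61 and 11.70 against 11.97, 12.02, 12.45 and 12.11, limma adjusted p = 0.0202). Slc30a1, the zinc exporter of the plasma membrane, rose 1.43-fold (10.99 ± 0.16 against 10.47 ± 0.17, SD, n = 4 each, limma adjusted p = 0.0194). A dim second probe set of it gave 5.73 in each group. Without menin-deficient replicate 2 the calls of Slc30a4 and Slc30a1 were lost (adjusted p = 0.057 and 0.0586), and that of Slc30a1 also without replicate 4 of that group. Slc39a11 rose 1.44-fold, and so did the iron exporter ferroportin, Slc40a1 (1.49-fold), calls that 5 left-out arrays each ended (highest adjusted p = 0.0647 and 0.0833, without menin-deficient replicate 2). Slc39a10 and Slc39a6, zinc importers of the plasma membrane, differed by 0.27 and 0.24, Slc30a5, the Golgi partner of Slc30a6, by 0.08 (95% interval -0.16 to 0.32) and the iron importer Slc11a2 by 0.13 (95% interval -0.24 to 0.50), none past the threshold. Another probe set of Slc11a2 was higher by 0.49 (8.21 against 7.72, adjusted p = 0.0213 in the fit of single probe sets), and one more differed by -0.04.

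Amino acid and peptide carriers showed the largest fall. Of 22 members 4 rose and 2 fell (2 and 2 after centring), and the class median was 0.03. Shares of 18.2% and 9.09% stood against 18.5% and 6.07% of genes at the members' level. Slc38a10, a carrier of glutamine and other amino acids, measured 10.48, 10.43, 10.76 and 10.50 in menin-deficient and 11.85, 12.04, 12.36 and 11.78 in control arrays. The groups lay at least 1.02 apart, and the difference was -1.47 (SE 0.14, 2.76-fold, limma adjusted p = 0.00183). This rests on 1 of its probe sets: another, at 10.13 in menin-deficient and 9.77 in control arrays, differed by 0.36, and one more by 0.25 (adjusted p = 0.0879 and 0.245 in a limma fit of single probe sets). Averaged over its probe sets Slc38a10 was not called (adjusted p = 0.474).

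Slc38a9, the lysosomal carrier that senses arginine for the growth kinase mTORC1, measured 10.91, 10.93, 11.20 and 11.12 against 11.72, 11.86, 11.37 and 11.63 (-0.61, SE 0.12, limma adjusted p = 0.0144). Its 6 other probe sets ranged from -0.41 to 0.15, none past the threshold on its own, and the call was lost with the mean of all its probe sets (adjusted p = 0.21). Slc43a1, a carrier of large neutral amino acids, had 9.44, 9.75, 9.67 and 9.43 in menin-deficient and 8.85, 8.80, 8.41 and 8.72 in control arrays, a rise of 1.84-fold (limma adjusted p = 0.00493), on its only probe set. Slc66a2, a PQ-loop protein, rose 1.54-fold, and its second probe set gave 0.50 (adjusted p = 0.00606 in the fit of single probe sets). Slc38a1, a sodium-coupled glutamine carrier, rose 1.26-fold and Slc36a4, a proton-coupled carrier, 1.51-fold, and these calls were each lost with any of 4 arrays left out (highest adjusted p = 0.0667 and 0.0919, without menin-deficient replicate 2).

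Other well-known amino acid carriers did not pass the threshold. Slc7a5, which imports leucine, had 10.05, 9.50, 9.40 and 9.81 in menin-deficient and 9.73, 10.31, 10.46 and 9.88 in control arrays, and its heavy chain Slc3a2 had 12.37, 12.41, 12.20 and 12.41 against 11.99, 12.30, 11.79 and 12.17. Both overlapped, with differences of -0.41 (95% interval -0.90 to 0.09) and 0.28 (0.01 to 0.55, limma adjusted p = 0.123). The glutamine importer Slc1a5 ranged widely within groups, from 11.51 to 12.83 and from 11.58 to 12.79 (difference -0.30, 95% interval -1.17 to 0.57). Slc38a2, another glutamine carrier, differed by 0.10 (95% interval -0.14 to 0.34), the light chain Slc7a6 by 0.28 and the arginine importer Slc7a1 by -0.25. The 16 amino acid carriers not called ranged from -0.45 to 0.28.

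Carriers of sugars and inositol numbered 14, of which 3 rose and 1 fell (1 and 2 after centring). As deposited this is 21.4% and 7.14%, near the 18.5% and 6.07% of genes at the members' level. Slc5a9 (SGLT4), a sodium-coupled carrier of mannose and related sugars, had the largest difference of all members. It measured 8.81, 7.15, 8.09 and 7.50 in menin-deficient and 5.15, 5.59, 5.79 and 5.94 in control arrays. The spread in the menin-deficient group was wide (SD 0.73), yet the groups did not overlap, and the difference was 2.27 (SE 0.37, 4.82-fold, limma adjusted p = 0.00826). A dimmer probe set gave 2.14 from a control mean of 2.76, and another differed by -0.41 at 3.63 against 4.04. With the mean of all its probe sets the call of Slc5a9 was lost (limma adjusted p = 0.0841).

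Slc2a1 (GLUT1), the common glucose importer, had 9.19, 9.01, 9.11 and 9.12 against 9.28, 9.37, 9.67 and 9.55, a fall of 1.28-fold (limma adjusted p = 0.034). Its probe sets disagreed: one differed by -0.14, and another was higher by 0.38 (adjusted p = 0.00393 in the fit of single probe sets), and with the mean of all its probe sets the call was lost (adjusted p = 0.758). Slc2a3 (GLUT3) differed by 0.22 (limma adjusted p = 0.14). Slc45a4 rose 1.58-fold and Slc50a1 1.27-fold, and each call was lost with any of 7 arrays left out (highest adjusted p = 0.09 and 0.087, without menin-deficient replicate 2), as was that of Slc2a1 with any of 5 (0.0922, without the same array). Slc37a3, with 6.88 ± 0.44 in menin-deficient and 7.77 ± 0.47 in control arrays, had the lowest uncalled difference of the members (-0.89, limma adjusted p = 0.075). Of the 5 carboxylate carriers 0 passed in limma, and 0 had an unadjusted p under 0.05. Slc16a1 (MCT1), which carries lactate and pyruvate, differed by -0.12 (14.57 ± 0.19 against 14.69 ± 0.15, SD, n = 4 each).

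Lipid and choline carriers had 2 rises among 7 members (28.6%, against 18.5% of genes at the members' level). The class median was 0.37, and 1 was higher after centring. Slc27a2, which imports and activates very long-chain fatty acids, measured 7.15, 7.12, 5.93 and 7.01 in menin-deficient and 5.65, 4.50, 5.25 and 5.51 in control arrays. Menin-deficient replicate 3 stood 0.29 above the highest control array, and the difference was 1.58 (SE 0.36, 2.98-fold, limma adjusted p = 0.0228). The call was lost on leaving out menin-deficient replicate 1, 2 or 4 (highest adjusted p = 0.0667, without replicate 2). Its relative Slc27a4 differed by 0.63 without overlap but did not pass (limma adjusted p = 0.0635), and Slc27a1 differed by 0.38. Slc10a3 rose 1.25-fold, a call lost with any of 4 arrays left out (highest adjusted p = 0.079, without menin-deficient replicate 2). The choline carriers Slc44a1 and Slc44a2 differed by 0.23 and -0.22.

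**Figure D3:**
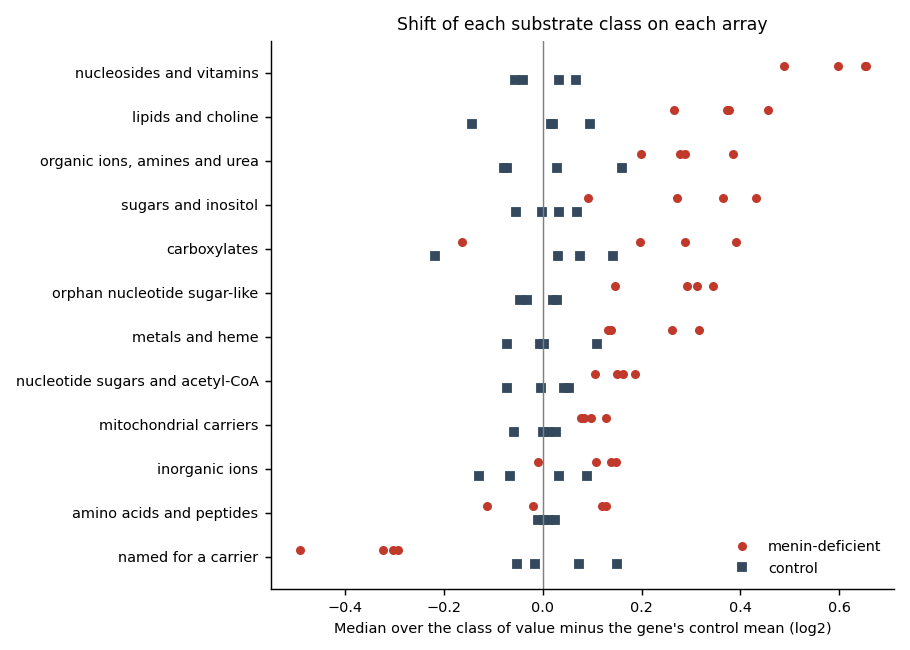
For each substrate class, the median over its members of the value minus the gene's control mean (log2), on each menin-deficient (red circles, upper) and control array (dark squares, lower). Menin-deficient arrays lie at 0.49 to 0.65 for nucleosides and vitamins and at 0.08 to 0.13 for mitochondrial carriers, while those for carboxylates, inorganic ions and amino acids fall on either side of 0.

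Most carriers of the Slc25 family exchange metabolites across the inner mitochondrial membrane. The class of mitochondrial carriers took the whole family, the peroxisomal Slc25a17 included. Of 35 members 5 rose and 2 fell (2 and 2 after centring), and the class median was 0.11, as over all tested genes. The shares as deposited, 14.3% and 5.71%, were no larger than the 18.5% and 6.07% of genes at the members' level. Slc25a1, which exports citrate for fatty acid and sterol synthesis, had 12.49, 12.66, 12.45 and 12.60 in menin-deficient and 11.73, 11.88, 11.68 and 11.76 in control arrays. With SDs of 0.09 and 0.08, this was among the most even rises (0.79, SE 0.06, 1.73-fold, limma adjusted p = 0.00122). Slc25a11, the oxoglutarate-malate carrier, rose 1.25-fold, Slc25a45 1.39-fold and Slc25a17, which lies in peroxisomes, 1.43-fold. The call of Slc25a11 was lost without menin-deficient replicate 2 (adjusted p = 0.0519), and that of Slc25a17 with any of 6 arrays left out (highest adjusted p = 0.102, without the same array).

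The phosphate carrier Slc25a3 and the adenine nucleotide translocase Slc25a4 differed by 0.11 and 0.16 and did not pass. The translocase Slc25a5 passed at 1.10-fold (15.53 ± 0.05 against 15.39 ± 0.03, SD, n = 4 each, limma adjusted p = 0.0433), a difference of 0.01 after centring, and the mean of its probe sets turned the sign (-0.12, adjusted p = 0.421). It was lost with any of 6 arrays left out (highest adjusted p = 0.108, without menin-deficient replicate 2). Slc25a36, a pyrimidine nucleotide carrier, fell 1.25-fold (12.65, 12.72, 12.69 and 12.82 against 13.09, 13.02, 12.98 and 13.06, limma adjusted p = 0.0066). One of its other probe sets was higher by 0.42 (adjusted p = 0.0171 in the fit of single probe sets) and another differed by -0.20, and with the mean of all its probe sets the call was lost (adjusted p = 0.625). Slc25a14 fell 1.24-fold on its only probe set, and the call was lost without control replicate 4 or menin-deficient replicate 4 (highest adjusted p = 0.0545).

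Carriers of nucleotide sugars feed glycosylation and sulfation in the endoplasmic reticulum and Golgi. Of 14 members, the acetyl-CoA carrier Slc33a1 included, 5 rose and 1 fell, and all rises were of 1.33-fold or less. Their shares were 35.7% and 7.14%, against 18.5% and 6.07% of genes at the members' level. After centring 1 member was higher and 2 lower. Slc35b1, which brings ATP into the endoplasmic reticulum, had 13.45, 13.38, 13.42 and 13.33 in menin-deficient and 13.05, 13.03, 13.05 and 12.99 in control arrays (1.29-fold, limma adjusted p = 0.00232). Slc35b2, which carries the sulfate donor PAPS, rose 1.33-fold (limma adjusted p = 0.0182), and the UDP-N-acetylglucosamine carrier Slc35a3 1.18-fold. The calls of Slc35a3 and Slc35b2 were lost after centring (adjusted p = 0.286 and 0.101). That of Slc35a3 was also lost with quantile normalization, the 60th percentile filter and the mean of its probe sets (adjusted p = 0.0591, 0.0532 and 0.768), and its other probe sets differed by -0.29 to 0.25. Slc35a4 rose 1.21-fold and Slc35d1 1.27-fold. Another probe set of Slc35a4, nearly as bright (11.92 against 11.90), differed by 0.02. A dimmer one of Slc35d1 differed by -0.28 (5.58 against 5.85), and the mean of probe sets ended both calls. The calls of Slc35a4 and Slc35d1 were lost with any of 4 and of 7 arrays left out (highest adjusted p = 0.0675, without menin-deficient replicate 2, and 0.0905, without control replicate 1).

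The UDP-galactose carrier Slc35a2 measured 11.41, 10.45, 11.22 and 10.97 in menin-deficient and 11.90, 12.43, 11.98 and 11.98 in control arrays, a fall of 2.08-fold (SE 0.22 on the log2 scale, limma adjusted p = 0.0174). Of its other probe sets, all dimmer, 1 differed by -0.51, 1 by -0.02 and 3 by 0.24 to 0.33, none past the threshold on its own, and the mean of all ended the call (adjusted p = 0.403). The 7 orphan Slc35 members had differences of 0.04 to 0.54. Slc35f5 (1.45-fold) and Slc35e3 (1.18-fold) passed, or 28.6%, against 18.5% of genes at the members' level. After centring 1 of the 7 was higher. The call of Slc35e3 was lost without menin-deficient replicate 2 or 4 or control replicate 1 (highest adjusted p = 0.056).

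Of 8 carriers of organic ions, amines and urea, 2 rose (25%, against 18.5% of genes at the members' level), and 1 was higher after centring. The urea carrier Slc14a1 had 10.38, 10.45, 10.46 and 10.27 in menin-deficient and 9.88, 9.89, 9.55 and 9.72 in control arrays (1.55-fold, limma adjusted p = 0.00532), with 0.49 on its other probe set. Slc17a5, the lysosomal sialic acid exporter, rose 1.37-fold (9.70 ± 0.11 against 9.24 ± 0.16, SD, n = 4 each, limma adjusted p = 0.0167), a call lost without menin-deficient replicate 2 (adjusted p = 0.0503). The vesicular amine carrier Slc18a2, known from mast cells and neurons, differed by 0.50 and the norepinephrine carrier Slc6a2 by -0.61, neither past the threshold. Slc6a2 met the level rule mainly through control arrays, 4 of which and 1 menin-deficient array reached 5. The rule also took 4 genes that are named for a carrier but are not carriers, Slc7a6os, Slc9a3r1, Slc4a1ap and Slc2a4rg-ps. In limma 0 of the 4 passed, with differences of -0.74 to -0.11, 2 had an unadjusted p under 0.05, and 2 were lower after centring.

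Many called members had further probe sets, and these did not always share the sign. Of the 10 members that fell, 6 had another probe set with a mean of at least 5, and in 5 of these at least 1 such probe set had the opposite sign. The median difference of those other probe sets was 0.03, against -0.51 for the probe sets that stood for the genes. Of the 39 that rose, 12 had such a probe set, and in 8 all of them had the same sign (median 0.13, against 0.42). Of the 117 members not called, 47 had such a probe set, and in 20 at least 1 had the opposite sign (medians 0.11 and 0.11). The difference between these shares was not tested. Probe sets ending in _x_at or _s_at, which can match several transcripts, stood for 0 of the 10 falls and 3 of the 39 rises. Those ending in _a_at stood for 4 of the 10 falls, 4 of the 39 rises and 14 of the 117 members not called. These falls were Slc38a10, Slc35a2, Slc2a1 and Slc25a36, each with another probe set of opposite sign. The part of the kind of probe set in the falls was not tested. With the mean of each gene's probe sets 31 of the rises and 3 of the falls remained called.

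**Figure D4:**
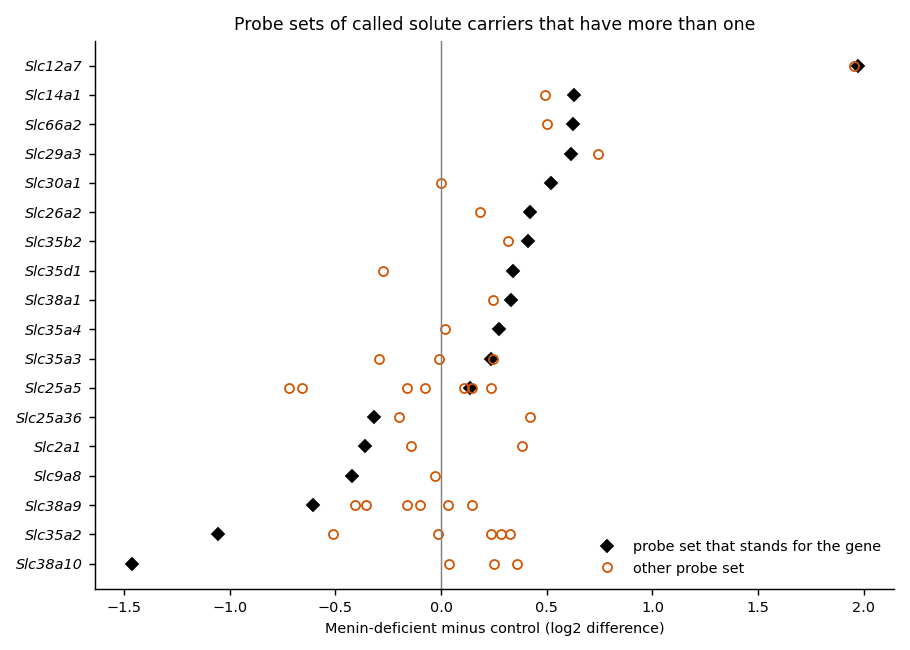
Log2 difference, menin-deficient minus control, of each probe set with a mean of at least 5 for the 18 called members that have more than one, with the probe set that stands for the gene as a black diamond and the others as open circles. The probe sets of Slc12a7 lie together near 1.97, and those of Slc38a10, Slc35a2 and Slc2a1 lie on either side of 0.

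Partners and regulators of carriers, a list of 39 tested genes that are no members, had 7 rises and 2 falls (3 and 3 after centring), with a median of 0.17. These are 17.9% and 5.13% of the list, near the 16.2% and 5.17% of all tested genes. Subunits of amino acid signalling to mTORC1 went both ways: Rptor, the raptor subunit, rose 1.90-fold (12.12 ± 0.15 against 11.20 ± 0.14, SD, n = 4 each, limma adjusted p = 0.00252), the GTPase Rraga 1.44-fold and the lysosomal scaffold Lamtor5 1.26-fold, whereas the scaffold Lamtor3 fell 1.39-fold. Mtor differed by -0.17 (limma adjusted p = 0.257). Asns, asparagine synthetase and a target of the amino acid response factor Atf4, rose 1.84-fold and Atf4 1.16-fold. Other targets of Atf4 on the list did not pass: Ddit3 differed by 0.36 (limma adjusted p = 0.0684), Trib3 by 0.02, Chac1 by -0.02 and Sesn2 by -0.04. Chac1 (4.00 against 4.02) and Sesn2 (3.26 against 3.30) lay below the members' level of 5, so their small differences say little. Emb, a chaperone of monocarboxylate carriers, rose 1.54-fold, while its relative Bsg differed by 0.27 and did not pass. Arrdc4, an arrestin-like gene known from control of glucose uptake, rose 2.51-fold, while Txnip, of the same family, differed by 0.08. Aco1, the cytosolic aconitase that acts in iron control, fell 1.46-fold.

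Of 50 tested transporters without an Slc name, 10 rose and 3 fell (3 and 5 after centring), with a median of 0.22. These are 20% and 6% of the list, against 16.2% and 5.17% of all tested genes. Genes at the members' level had 18.5% and 6.07%, but this list was not chosen by that level. The ABC transporters Abcb8, of mitochondria, and Abcg2, an exporter of drugs and porphyrins, rose 1.71-fold and 1.39-fold (9.42 ± 0.10 against 8.65 ± 0.10, and 11.51 ± 0.08 against 11.03 ± 0.08, SD, n = 4 each, limma adjusted p = 0.00173 and 0.00399). Mfsd1, a lysosomal carrier, rose 1.47-fold, and the organic anion carrier Slco4a1 fell 1.88-fold (limma adjusted p = 0.00468). By the neighbours given in GRCm38.p6, 1 member, Slc35c1, lies within 10 Mb of Rag1, for which the Cre line is named, and it did not pass (difference 0.24). Within 10 Mb of Men1 lie 3 members, of which Slc25a45 rose, and Slc15a3 and Slc3a2, with differences of 0.18 and 0.28, did not pass.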

How the data were processed

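The authors deposited log2 values of 8 arrays (45037 probe sets besides 64 manufacturer controls). The log2 scale was judged from its range, 2.08 to 17.4. MAS5 and GCRMA are named per the submitters' processing notes, without their roles or versions, so the summary method behind the table is unknown here. Between 36.1% and 36.7% of an array's probe sets lie at the floor, which compresses low values. Array medians were 3.29 to 3.50. No detection calls were used.

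Probe sets were named by the platform annotation, 34945 of them with 1 symbol. Those above their array's 40th percentile on at least 4 arrays were kept, each gene was represented by its probe set of highest mean, and 11885 genes were tested in limma 3.58.1 by lmFit and eBayes (under R 4.3.3, with version 1.17.8 of its data.table package), menin-deficient against control without covariates, with Benjamini-Hochberg adjustment over all genes and a threshold of 0.05. All 166 members matched the RefSeq table under the same symbol. The fit was tested on simulated data. Plots used matplotlib 3.10.9 in Python 3.11.15.

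Members, substrate classes and lists were chosen with earlier results of these data known. Substrate classes follow the family number, with exceptions by gene, and the 4 genes only named for a carrier were set apart after the members were seen. The text names the 12 largest rises and 12 largest falls (10 were found) with groups that did not overlap, in each class the 2 members of highest mean and the 2 of lowest p, a fixed set of well-known carriers, members next to the level limit, and the 4 genes of lowest p in each companion list. All other names were chosen after their values were seen, most of them to account for every call. Alternatives are listed in the closing section.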

Additional observations from a re-analysis of the deposited data

Results flagged for a closer look

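Of 124 groups of 4 arrays examined (62 named members in both groups), 11 had a single array far from the other 3. Chance gives about 1 in 20 groups. In menin-deficient arrays, replicate 3 was low in Slc27a2 (5.93, the others 7.01 to 7.15) and in Slc16a1 (14.28, the others 14.63 to 14.70) and high in Slc39a4 (5.64, the others at 5.20). Replicate 1 of that group was low in Slc35f5 (9.73, the others at 9.96 or more), and replicate 2 was high in Slc25a25 (5.38, the others all at 5.30), where equal values of the other 3 give the distance little meaning.

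Among control arrays, replicate 3 was high in Slc10a7 (12.71, the others 12.22 to 12.29) and Slc25a5 (15.44, the others 15.37 to 15.38). Control replicate 4 was low in Slc16a13 (4.79, the others 5.20 to 5.28) and Slc40a1 (6.60, the others 7.13 to 7.21). Control replicate 1 was low in Slc25a25 (4.90, the others 5.27 to 5.32), and control replicate 2 was high in Slc35a2 (12.43, the others 11.90 to 11.98).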

How the results depend on the processing

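The alternatives were quantile normalization, centring of arrays on the median tested gene, no filter, a filter at the 60th percentile, averaging over the probe sets of a gene, leaving out _x_at and _s_at probe sets, trended robust eBayes, array weights, sex as a covariate, the replicate number as a block, a threshold of 0.10, membership at a level of 4 or 6, every probe set on its own, and leaving out each array. The 39 rises became 20 after centring, and 21 to 38 with 1 array left out. The 10 falls became 3 with the mean of probe sets and 7 to 11 with 1 array left out. Over all tested genes the 1922 rises became 911 after centring, 1257 without a filter and 1045 to 1703 with 1 array left out, and the 614 falls became 971 after centring and 368 to 566 with 1 array left out (lowest without menin-deficient replicate 2, 1045 and 368; 1202 rises without control replicate 1). With the replicate number as a block 18 members were higher and 4 lower, and 984 and 344 of all tested genes. The numbers do not pair the arrays by the labels, deviations of same-numbered arrays correlated at -0.31 to 0.05, and 0 of 8 arrays correlated best with their own number. The sign of Slc25a5 turned with the mean of probe sets (-0.12). Of 1324 values of 70 named genes under the alternatives, 1170 kept their direction and their side of the threshold or were not called in either, 141 lost the call, 12 gained one and 1 turned its sign. The cause of these shifts was not tested. A single array per mouse, 4 in each group and a floor at 2.08 limit what can be seen for dim carriers.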
